A study of Mus musculus with 32 samples.

Results

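Cytochrome P450 enzymes were followed through 72 h of cisplatin injury in mouse kidney. The members were the genes whose symbol has the form Cyp, number, letters, number, without Cyp4a10, Cyp4a14, Cyp24a1 and Cyp27b1. The arrays carried probes for 86 such genes. Of these, 61 had a probe that the scanner software marked as well above background in all 4 animals of some group, and these are the genes described, among 23759 genes and transcripts tested. Where a gene had several probes, the brightest one was used. In all 8 groups 53 members passed this filter, and 8 passed it in fewer, of which Cyp2a12 and Cyp2c50 passed through miR-155-/- saline kidney alone and Cyp2b19 through wild type 24 h kidney alone. The 25 that were not include Cyp7a1, Cyp8b1, Cyp1a2, Cyp19a1, Cyp11a1, Cyp11b1, Cyp3a25 and Cyp2c39.

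Whole homogenised kidney of 32 male mice aged 12 to 16 weeks was hybridised, 1 animal per array, in 8 groups of 4. Wild type mice were C57BL/6, and the miR-155-/- mice, which lack this microRNA in every cell, were of the strain B6.Cg-Mir155tm1.1Rsky/J. Cisplatin, a platinum agent toxic to the proximal tubule, was given as a single dose of 20 mg/kg, and kidneys were taken at 24, 48 or 72 h. The 0 h group of each genotype received saline. The genotypes came from different suppliers, so supplier and genotype cannot be told apart. Saline was sampled at 0 h alone, so the effect of time since injection and that of cisplatin cannot be told apart either.

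Cytochrome P450 enzymes are haem proteins of the endoplasmic reticulum and mitochondria that insert an oxygen atom into their substrates. Those of the endoplasmic reticulum receive electrons passed on by P450 oxidoreductase or cytochrome b5. Families with narrow, conserved substrates make and remove sterols, bile acids, steroid hormones, retinoic acid and vitamin D. The larger families oxidise drugs, foreign chemicals and fatty acids, including arachidonic acid. In the kidney they are concentrated in the proximal tubule, where their arachidonic acid products act on salt transport and vessel tone.

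The tissue label was checked against markers. All 12 proximal tubule markers and all 6 of thick limb and distal tubule were measured. The summed level of the proximal tubule markers, on the linear scale relative to each array's 75th percentile, ran from 716 to 793 in wild type saline kidney and from 597 to 858 in miR-155-/- saline kidney. It ran from 362 to 559 over the wild type cisplatin arrays and from 328 to 592 over the miR-155-/- cisplatin arrays. The markers of thick limb and distal tubule were called lower in 6, 4 and 4 of 6 cases at 24, 48 and 72 h in wild type and in 6, 6 and 5 in miR-155-/- kidney. The arrays of 24 h replicate 3 and 48 h replicate 3 in miR-155-/- kidney had the highest values of all on the first principal component, at 87.8 and 121, and are called below the arrays that stood apart. The arrays lay 4 to a slide on 8 slides. No probe could be matched to the deleted microRNA, so the deletion was not checked here.

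After cisplatin 33 of the 61 P450 genes were called lower in at least 1 comparison with saline and never higher. Another 14 were called higher and never lower, and 1 was called in both directions. Shares of all genes for these totals were not counted. Lower calls outnumbered higher ones at every time, narrowly so at 48 and 72 h in wild type kidney. Levels are given as log2 of the processed signal minus the array's 75th percentile, differences as log2 with the standard error of the limma fit over all 32 arrays, and a gene was called at a Benjamini-Hochberg adjusted p under 0.05 over all genes tested. At 24 h in wild type kidney, 7 members were called higher and 13 lower, 32.8% of the 61, where 38.6% of all genes tested were called. At 48 h the counts were 9 and 11, or 32.8% against 23.8% of all genes, and at 72 h 12 and 14, or 42.6% against 25.3%. In miR-155-/- kidney 4 members were called higher and 23 lower at 24 h, 44.3% against 49.1% of all genes tested. At 48 h 5 were higher and 23 lower, 45.9% against 43.8%, and at 72 h 12 were higher and 27 lower, 63.9% against 35.2%. The share of members called was thus near or below that of all genes at 24 h in both genotypes and at 48 h in miR-155-/- kidney.

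The direction of the members can be read against the same background. Lower calls made up 21.3% of members at 24 h in wild type kidney against 17.6% of all genes, 18% against 11.6% at 48 h and 23.0% against 12.8% at 72 h. In miR-155-/- kidney they made up 37.7% against 22.5%, 37.7% against 21.1% and 44.3% against 17.5%. Higher calls made up 11.5% against 21%, 14.8% against 12.2% and 19.7% against 12.5% in wild type kidney, and 6.56% against 26.6%, 8.20% against 22.7% and 19.7% against 17.7% in miR-155-/- kidney. The median difference over the members was -0.16, -0.15 and -0.10 in wild type and -0.37, -0.44 and -0.42 in miR-155-/- kidney, while the median over all genes lay between -0.05 and 0.07. The 3 comparisons of a genotype share its 4 saline arrays. In bulk kidney, fewer cells of a type and less RNA per cell cannot be told apart. The counts moved to 6 and 16, 10 and 14, 12 and 16, 5 and 25, 6 and 27, and 12 and 28 when slide was added to the fit as a block. Without the array of miR-155-/- 24 h replicate 4, the count at 24 h in that genotype was 18 in place of 27.

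**Figure D1:**
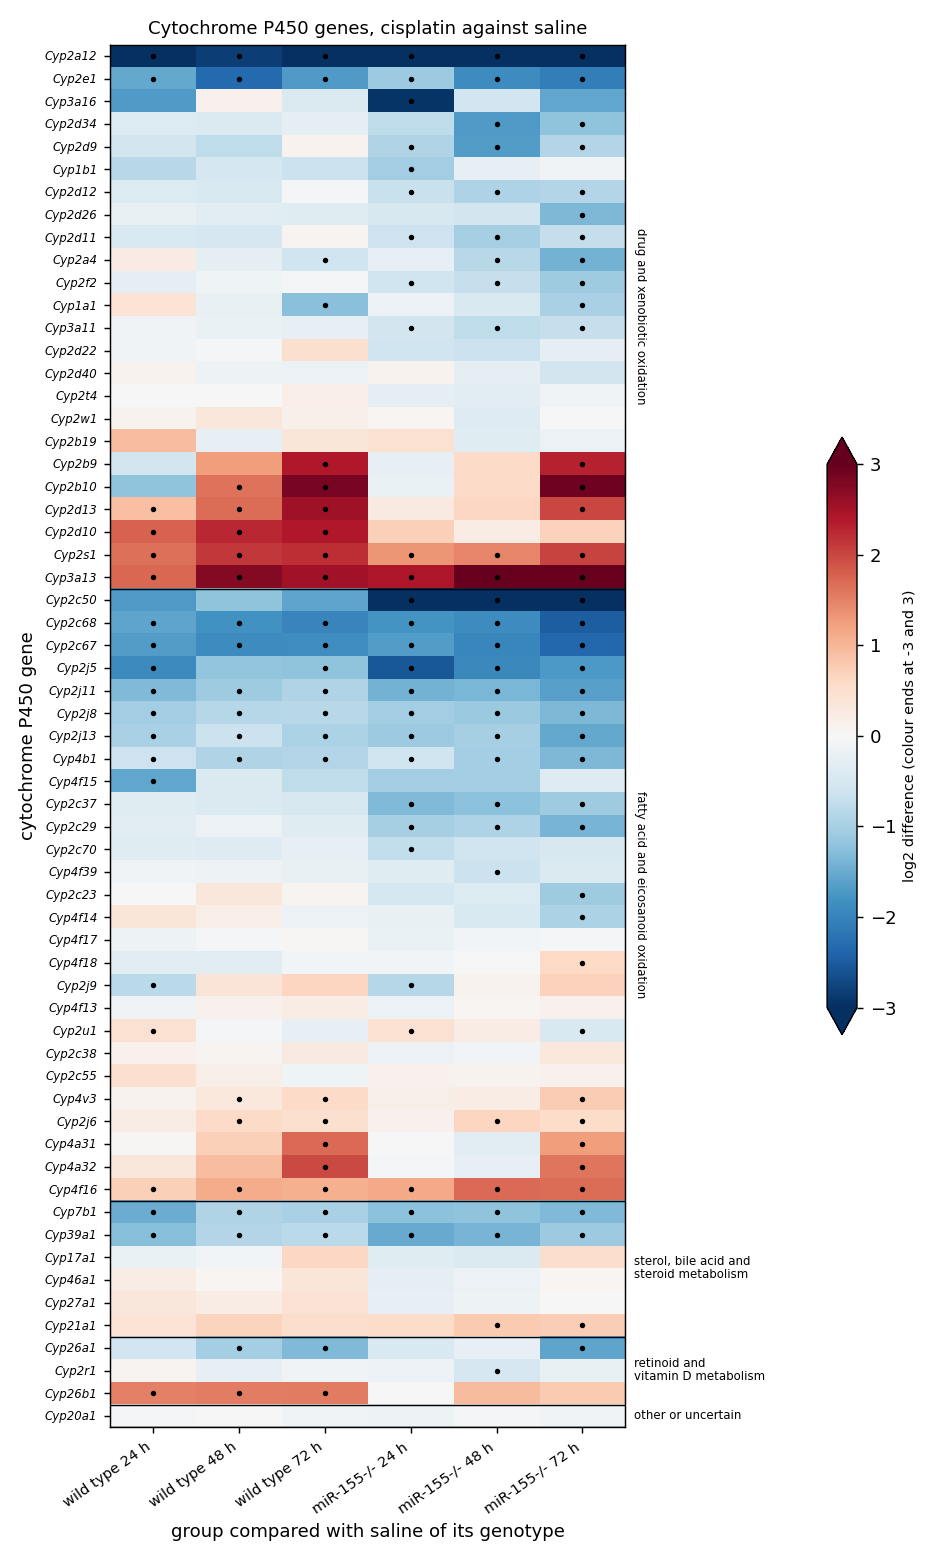
Each row is one of the 61 P450 genes, grouped by role, and each column one of the 6 comparisons of cisplatin with saline; colour gives the log2 difference and a dot marks a gene called by limma. Cyp2s1, Cyp3a13 and Cyp4f16 are called higher in all 6 columns, and 10 genes, among them Cyp2e1, Cyp4b1 and Cyp7b1, are called lower in all 6.

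Calls recurred across the comparisons for a limited set of genes, as the map of log2 differences shows. How often calls recurred over all genes was not counted, so the numbers of recurring members have no background here. Cyp2s1, Cyp3a13 and Cyp4f16 were called higher in each of the 6 comparisons. Cyp2a12, Cyp2c67, Cyp2c68, Cyp2e1, Cyp2j8, Cyp2j11, Cyp2j13, Cyp39a1, Cyp4b1 and Cyp7b1 were called lower in each. Another 35 members were called in 1 to 5 comparisons, and Cyp2u1 alone was called in both directions, higher at 24 h in each genotype and lower at 72 h in miR-155-/- kidney. For Cyp2a12 this was favoured in miR-155-/- kidney by the filter, which it passed only through its high level in that saline group. The remaining 13 members were called in none, and these include Cyp27a1, Cyp46a1, Cyp17a1, Cyp20a1, Cyp2d22 and Cyp4f13. The median half-width of the 95% confidence interval was 0.575, so a difference smaller than that was not detectable for the typical member. The interval is not adjusted for the number of genes tested, so a call needed a larger difference still.

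Among the 24 measured genes of drug and xenobiotic oxidation, Cyp2e1 fell at every time and Cyp2a4 late. The counts in this group were 4 higher and 2 lower at 24 h, 5 and 2 at 48 h and 6 and 4 at 72 h in wild type kidney. They were 2 and 9, 2 and 9, and 5 and 11 in miR-155-/- kidney. The shares of all genes called in each comparison, given above, are the background of these and later group counts. The levels below are shown array by array in the order of the replicate numbers.

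Cyp2e1 oxidises ethanol, paracetamol and other small molecules. Its level was 6.64, 6.35, 6.56 and 6.49 on the wild type saline arrays, 5.02, 5.28, 4.79 and 4.78 at 24 h, 3.54, 3.60, 5.01 and 4.56 at 48 h and 5.06, 4.94, 4.54 and 4.74 at 72 h. Levels of miR-155-/- kidney were 6.41, 6.29, 6.22 and 6.49 with saline, 4.58, 5.09, 5.98 and 5.43 at 24 h, 4.06, 3.90, 5.56 and 4.39 at 48 h and 4.04, 4.22, 4.18 and 4.64 at 72 h. Every cisplatin array lay below every saline array of its genotype, and the values spread widest at 48 h. The wild type differences were -1.54 ± 0.30, -2.33 ± 0.30 and -1.69 ± 0.30 (limma adjusted p = 0.000173, 1.19e-06 and 9.21e-05), a fall of 5.04-fold at 48 h. Those of miR-155-/- kidney were -1.08 ± 0.30, -1.88 ± 0.30 and -2.08 ± 0.30 (limma adjusted p = 0.00386, 1.52e-05 and 3.4e-06). With slide as a block all 6 stayed negative and called, between -1.97 and -0.90. Within single slides that held both groups they ran from -2.75 to -0.51.

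Cyp2a4 hydroxylates steroids such as testosterone, and its copy Cyp2a5 is nearly identical in sequence, so that the probe may read both. Its level was 5.64, 5.72, 5.89 and 6.15 in wild type saline kidney, 6.14, 6.17, 6.17 and 5.88 at 24 h, 5.23, 5.58, 5.79 and 5.72 at 48 h and 5.26, 5.36, 5.08 and 5.28 at 72 h. On the miR-155-/- arrays it was 6.47, 6.44, 5.85 and 6.10 with saline, 6.05, 5.89, 5.90 and 6.05 at 24 h, 5.47, 5.55, 5.14 and 5.38 at 48 h and 4.68, 4.81, 4.73 and 4.94 at 72 h. The arrays overlapped saline at 24 h in both genotypes, and at 72 h all lay below it. The difference was 0.24 ± 0.13, -0.27 ± 0.13 and -0.60 ± 0.13 in wild type kidney (limma adjusted p = 0.152, 0.142 and 0.000885). The miR-155-/- values were -0.24 ± 0.13, -0.83 ± 0.13 and -1.43 ± 0.13 (limma adjusted p = 0.128, 1.18e-05 and 1.69e-09). The value at 72 h in miR-155-/- kidney had the smallest adjusted p among the members' comparisons, and within the slides that held both groups it was -1.51 and -1.13.

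**Figure D2:**
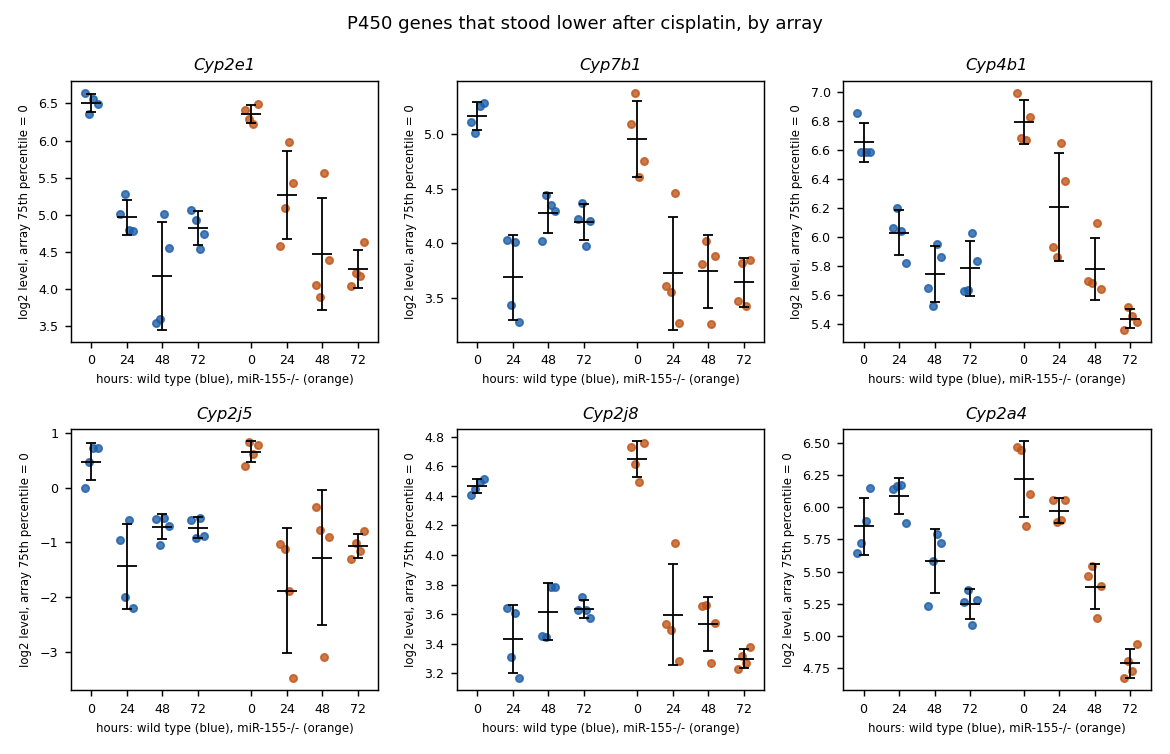
Levels of Cyp2e1, Cyp7b1, Cyp4b1, Cyp2j5, Cyp2j8 and Cyp2a4 (log2 signal relative to the array's 75th percentile) against hours after injection; points are arrays, bars the group mean ± SD, wild type in blue and miR-155-/- in orange. Cyp2e1 lies between 6.22 and 6.64 in saline kidney and between 3.54 and 5.98 after cisplatin, while Cyp2a4 overlaps saline at 24 h and falls to between 4.68 and 4.94 at 72 h in miR-155-/- kidney.

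Cyp2s1, Cyp3a13 and Cyp4f16 were the members that rose at every time in both genotypes. Their promoters are shown because they rose together. The stretches run from 250 bases before to 50 after the start of the gene in RefSeq on GRCm38.p6, read along the gene's strand, and capitals mark the AP-1 site TGACTCA or its complement TGAGTCA. They lie at chr5:137921570-137921869 on the minus strand (Cyp3a13), chr17:32536307-32536606 on the plus strand (Cyp4f16) and chr7:25816476-25816775 on the minus strand (Cyp2s1).
Cyp3a13: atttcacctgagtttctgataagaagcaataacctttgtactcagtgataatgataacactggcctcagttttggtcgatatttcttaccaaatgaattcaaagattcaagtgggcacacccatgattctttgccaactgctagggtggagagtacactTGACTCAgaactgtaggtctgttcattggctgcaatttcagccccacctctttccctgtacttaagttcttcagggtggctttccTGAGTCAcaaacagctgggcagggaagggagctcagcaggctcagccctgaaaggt
Cyp4f16: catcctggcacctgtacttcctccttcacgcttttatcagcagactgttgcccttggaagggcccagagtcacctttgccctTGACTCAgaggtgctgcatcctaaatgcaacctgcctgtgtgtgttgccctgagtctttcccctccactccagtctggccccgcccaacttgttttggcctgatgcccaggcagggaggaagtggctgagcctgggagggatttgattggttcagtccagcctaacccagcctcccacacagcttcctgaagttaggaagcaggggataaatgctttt
Cyp2s1: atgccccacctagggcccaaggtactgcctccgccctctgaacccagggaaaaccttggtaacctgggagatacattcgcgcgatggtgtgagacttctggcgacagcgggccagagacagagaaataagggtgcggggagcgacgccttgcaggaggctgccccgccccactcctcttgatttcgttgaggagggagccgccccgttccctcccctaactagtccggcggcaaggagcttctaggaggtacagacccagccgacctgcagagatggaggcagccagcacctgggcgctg

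The window of Cyp3a13 held the AP-1 letters at positions -91 and -6 from the start, and that of Cyp4f16 at -168. The window of Cyp2s1 did not hold these letters. On either strand they were present in 5.20% of 32851 mouse promoters of this length and in 3 of the 49 members that had a promoter in the table, or 6.12%. The third was Cyp2c70, which was called lower at 24 h in miR-155-/- kidney. The motifs were chosen after the members' values were seen.

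Cyp2s1 is a P450 of epithelia outside the liver that the aryl hydrocarbon receptor can induce. Its level was 1.17, 1.41, 1.47 and 1.70 in wild type saline kidney, 2.83, 3.30, 2.76 and 3.46 at 24 h, 3.40, 3.79, 3.41 and 3.60 at 48 h and 3.45, 3.74, 3.72 and 3.69 at 72 h. Kidneys of miR-155-/- mice gave 1.45, 1.42, 1.23 and 1.48 with saline, 2.83, 2.76, 1.75 and 3.58 at 24 h, 3.26, 3.20, 1.73 and 3.22 at 48 h and 3.50, 3.75, 3.22 and 3.25 at 72 h. No cisplatin array fell within the range of its saline group, and replicate 3 of miR-155-/- 24 h and 48 h, the arrays that stood apart, were the lowest treated ones. The differences were 1.65 ± 0.28, 2.11 ± 0.28 and 2.21 ± 0.28 in wild type kidney (limma adjusted p = 3.36e-05, 2.01e-06 and 8.38e-07), a rise of 4.63-fold at 72 h. For miR-155-/- kidney they were 1.33 ± 0.28, 1.46 ± 0.28 and 2.03 ± 0.28 (limma adjusted p = 0.000313, 0.000151 and 1.83e-06). They were 1.51 to 2.11 in wild type and 1.15 to 2.01 in miR-155-/- kidney with slide as a block, all called. Within the slides that held miR-155-/- saline and treated arrays, the differences were 0.26 and 2.13 at 24 h, 0.31 at 48 h and 1.82 and 1.99 at 72 h, and the small ones came from the slides of the arrays that stood apart.

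Cyp3a13 oxidises drugs and steroids in liver and intestine. Its level was -6.59, -5.97, -6.70 and -5.93 in wild type saline kidney, -4.28, -4.39, -5.27 and -4.35 at 24 h, -2.89, -3.03, -4.37 and -3.94 at 48 h and -4.28, -3.92, -3.52 and -3.43 at 72 h. The miR-155-/- arrays read -6.33, -6.12, -6.04 and -5.61 with saline, -4.43, -4.69, -1.56 and -3.69 at 24 h, -2.97, -3.15, 0.15 and -3.20 at 48 h and -2.29, -2.84, -2.15 and -3.44 at 72 h. The groups did not overlap saline, and the highest values came from the 2 arrays that stood apart. The differences were 1.73 ± 0.58, 2.74 ± 0.58 and 2.51 ± 0.58 in wild type kidney (limma adjusted p = 0.0196, 0.000819 and 0.00175). The miR-155-/- differences were 2.43 ± 0.58, 3.74 ± 0.58 and 3.34 ± 0.58 (limma adjusted p = 0.00109, 1.07e-05 and 4.57e-05). Without the arrays that stood apart the first and second of these were 1.75 and 2.92, and with slide as a block the second was 4.51. A second probe of the gene, also above background on all 32 arrays, rose by 0.35 to 0.84, so the size of the rise depended on the probe, and the mean of both gave 1.07 to 2.29. With the normexp background correction the wild type differences were 0.61, 1.23 and 1.06, not called at 24 and 72 h (limma adjusted p = 0.269 and 0.0694), and those of miR-155-/- kidney 1.30, 2.12 and 1.74. Without wild type saline replicate 3 the 24 h value was 1.59 (limma adjusted p = 0.0542).

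Cyp2b10 and Cyp2b9 rose late. Cyp2b10 is the best-known target of the receptor CAR and is induced by phenobarbital. Its level was -2.43, -2.47, -1.65 and -2.21 in wild type saline kidney, -2.88, -2.69, -3.59 and -4.46 at 24 h, -1.48, -0.24, -0.37 and -0.16 at 48 h and 0.52, 0.84, 0.66 and 0.59 at 72 h. Levels of miR-155-/- kidney were -2.53, -4.60, -2.39 and -2.66 with saline, -4.66, -3.64, -2.82 and -1.87 at 24 h, -2.28, -2.84, -3.18 and -1.59 at 48 h and -0.46, 0.60, 0.02 and -0.71 at 72 h. All 72 h arrays of both genotypes lay above saline. The wild type arrays lay below saline at 24 h and above it at 48 h, whereas those of miR-155-/- kidney overlapped it at both times. The 72 h difference was 2.84 ± 0.50 in wild type and 2.91 ± 0.50 in miR-155-/- kidney (limma adjusted p = 7.51e-05 and 3.52e-05). At 48 h it was 1.62 ± 0.50 and 0.57 ± 0.50 (limma adjusted p = 0.0168 and 0.364), and at 24 h -1.22 ± 0.50 and -0.20 ± 0.50, with neither called. The wild type 48 h call was lost without replicate 2 or replicate 4 of that group (limma adjusted p = 0.0528 and 0.0501), and with slide as a block the 24 h value of wild type kidney, -1.28, was called (limma adjusted p = 0.0375).

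Cyp2b9 is a close relative of Cyp2b10. Its level was -6.98, -6.31, -6.27 and -6.75 in wild type saline kidney, -6.48, -7.39, -7.78 and -6.89 at 24 h, -6.73, -4.82, -4.94 and -4.77 at 48 h and -4.42, -4.02, -4.35 and -3.88 at 72 h. The miR-155-/- arrays gave -7.37, -9.12, -6.47 and -6.15 with saline, -8.04, -8.46, -6.71 and -6.92 at 24 h, -6.54, -6.60, -7.53 and -6.17 at 48 h and -5.68, -3.91, -4.63 and -5.67 at 72 h. The arrays overlapped saline at 24 and 48 h and lay above it at 72 h in both genotypes. Its 72 h difference was 2.41 ± 0.53 in wild type and 2.31 ± 0.53 in miR-155-/- kidney. These are a description, since the gene passed the filter only through wild type 48 and 72 h and miR-155-/- 72 h kidney. That favoured a rise in these groups. It was not called at 24 or 48 h in either genotype. Normexp reduced the 72 h values to 0.89 and 0.57, both still called, and without miR-155-/- saline replicate 2 the latter was 1.69.

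The 9 measured Cyp2d genes, relatives of the human debrisoquine hydroxylase that lie in a cluster of near-identical copies, split in direction. Cyp2d13 was counted among them by its symbol, but the RefSeq record of its probe is one of non-coding RNA. Cyp2d13 was -5.41, -4.51, -5.18 and -5.46 in wild type saline kidney, -4.25, -4.57, -3.82 and -4.28 at 24 h, -3.77, -3.23, -3.56 and -3.31 at 48 h and -2.96, -2.88, -2.50 and -2.01 at 72 h. On the miR-155-/- arrays it was -5.50, -5.41, -4.50 and -4.34 with saline, -4.30, -5.12, -4.67 and -4.63 at 24 h, -3.82, -4.03, -5.27 and -4.11 at 48 h and -3.74, -2.30, -2.31 and -3.38 at 72 h. The arrays overlapped saline at 24 h in both genotypes and lay above it at 72 h. The differences were 0.91 ± 0.34, 1.67 ± 0.34 and 2.55 ± 0.34 in wild type kidney (limma adjusted p = 0.0337, 0.000492 and 1.54e-06), and 2.01 ± 0.34 at 72 h in miR-155-/- kidney (limma adjusted p = 2.9e-05). The 24 h call was lost with slide as a block (0.53, limma adjusted p = 0.153), with normexp and without any of 6 single arrays. Normexp also reduced the wild type 48 and 72 h values to 0.95 and 1.62 and the miR-155-/- 72 h value to 1.27.

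Cyp2d10 was -3.35, -4.73, -5.84 and -5.18 in wild type saline kidney, -3.35, -2.85, -2.81 and -3.01 at 24 h, -2.36, -2.73, -2.56 and -2.39 at 48 h and -2.75, -2.32, -2.09 and -2.38 at 72 h. It rose by 1.78 ± 0.45, 2.27 ± 0.45 and 2.39 ± 0.45 in wild type kidney (limma adjusted p = 0.00272, 0.000452 and 0.000212), or 0.99, 1.36 and 1.46 with normexp. Its miR-155-/- differences of 0.72, 0.23 and 0.69 were not called. The miR-155-/- saline arrays read -3.93, -4.14, -4.94 and -3.18. At 24 h they read -3.19, -3.05, -4.80 and -2.27, and at 48 h -3.75, -3.11, -4.92 and -3.49. At 72 h they read -3.56, -2.89, -3.13 and -3.86. The arrays that stood apart were the lowest of their groups. In each genotype Cyp2d10 was highest on the saline array that was also highest in albumin, given below, and the part of this was not tested. Its relatives Cyp2d9, Cyp2d11 and Cyp2d12 were called lower at all 3 times in miR-155-/- kidney, with differences of -1.67, -1.01 and -0.92 at 48 h. In wild type kidney the same genes were not called, with 48 h values of -0.75, -0.51 and -0.46. The difference between the genotypes' responses was not called for any of them.

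The other genes of drug oxidation were called in fewer comparisons. Cyp1a1, the classic target of the aryl hydrocarbon receptor, was called lower at 72 h, with a difference of -1.24 ± 0.24 in wild type and -0.98 ± 0.24 in miR-155-/- kidney (limma adjusted p = 0.000286 and 0.00209). Cyp2f2, which oxidises naphthalene in the airway, and Cyp3a11, a main drug oxidase of liver, were called lower at all 3 times in miR-155-/- kidney, with differences of -1.06 and -0.69 at 72 h. A second Cyp3a11 probe, above background on 13 of 32 arrays, had differences of -5.88 to -1.93 over the 6 comparisons, so that the size differed between the probes. Cyp2b19, Cyp2d22, Cyp2d40, Cyp2t4 and Cyp2w1 were not called in any comparison with saline.

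**Figure D3:**
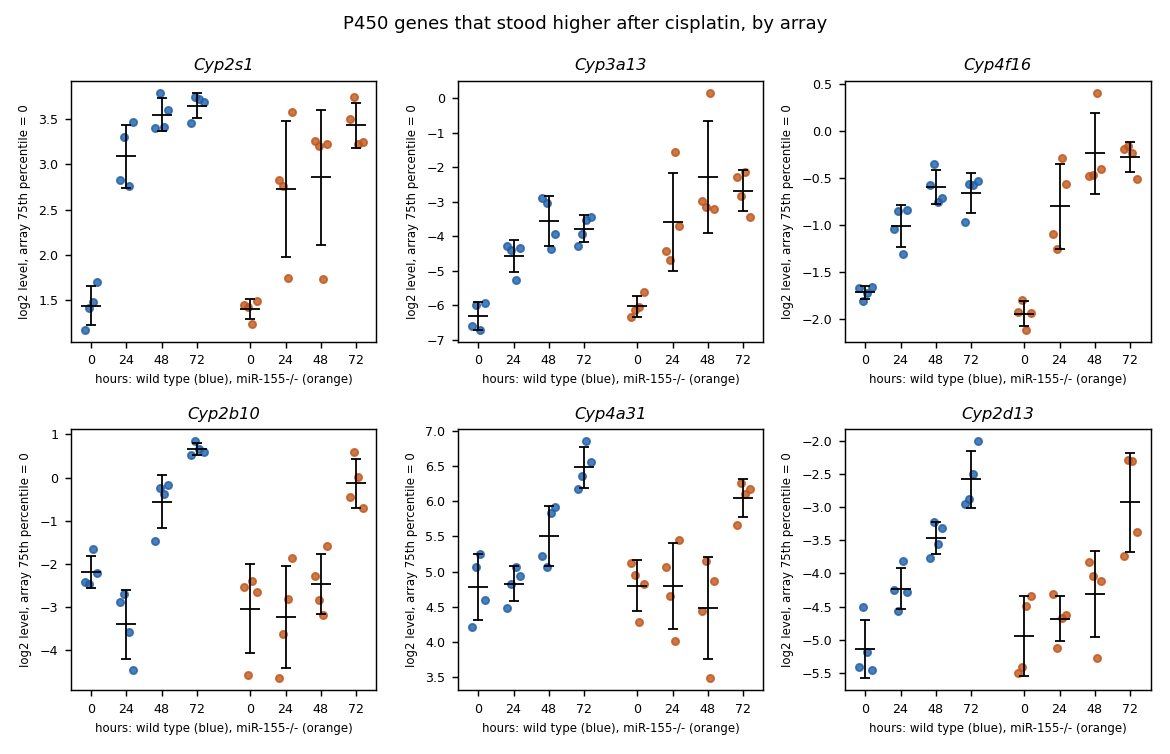
Levels of Cyp2s1, Cyp3a13, Cyp4f16, Cyp2b10, Cyp4a31 and Cyp2d13 (log2 signal relative to the array's 75th percentile) against hours after injection; points are arrays, bars the group mean ± SD, wild type in blue and miR-155-/- in orange. Cyp2s1 lies between 1.17 and 1.70 in saline kidney and between 1.73 and 3.79 after cisplatin, and the rise of Cyp2b10 and Cyp4a31 is seen at 72 h.

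Of the 27 measured genes of fatty acid and eicosanoid oxidation, 2 were called higher and 9 lower at 24 h in wild type kidney, 3 and 6 at 48 h, and 5 and 7 at 72 h. The miR-155-/- counts were 2 and 12, 2 and 11, and 6 and 13. Falls were shared by Cyp4b1, most Cyp2j genes and part of the Cyp2c genes, and rises by Cyp4f16, Cyp4a31, Cyp4a32, Cyp4v3 and, by its brightest probe alone, Cyp2j6.

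Cyp4b1 hydroxylates short fatty acids and activates aromatic amines. Its level was 6.86, 6.59, 6.59 and 6.59 in wild type saline kidney, 6.07, 6.20, 6.04 and 5.82 at 24 h, 5.65, 5.52, 5.95 and 5.86 at 48 h and 5.63, 5.64, 6.03 and 5.84 at 72 h. Kidneys of miR-155-/- mice gave 7.0, 6.68, 6.67 and 6.83 with saline, 5.93, 5.86, 6.65 and 6.39 at 24 h, 5.70, 5.69, 6.10 and 5.64 at 48 h and 5.36, 5.52, 5.45 and 5.41 at 72 h. Every treated array lay below the saline arrays of its genotype. The differences were -0.62 ± 0.14, -0.91 ± 0.14 and -0.87 ± 0.14 in wild type kidney (limma adjusted p = 0.000815, 1.67e-05 and 2.54e-05). Those of miR-155-/- kidney were -0.59 ± 0.14, -1.01 ± 0.14 and -1.36 ± 0.14 (limma adjusted p = 0.00106, 1.87e-06 and 1.44e-08), the last a 2.56-fold fall. Within the slides that held both groups at 72 h in miR-155-/- kidney they were -1.27 and -1.21.

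The Cyp2j genes convert arachidonic acid to epoxides, and Cyp2j5 is the form known from proximal tubule. They are close copies, and their probes may share signal. Cyp2j8 was 4.41, 4.45, 4.49 and 4.51 in wild type saline kidney, 3.64, 3.31, 3.61 and 3.17 at 24 h, 3.45, 3.45, 3.78 and 3.78 at 48 h and 3.63, 3.72, 3.63 and 3.57 at 72 h. The miR-155-/- arrays read 4.73, 4.62, 4.49 and 4.76 with saline, 3.54, 3.49, 4.08 and 3.28 at 24 h, 3.66, 3.66, 3.27 and 3.54 at 48 h and 3.23, 3.32, 3.27 and 3.38 at 72 h. Replicates lay close together, and no treated array reached the saline range. The differences were -1.03 ± 0.13, -0.85 ± 0.13 and -0.83 ± 0.13 in wild type kidney (limma adjusted p = 2.91e-07, 1.14e-05 and 1.36e-05) and -1.05 ± 0.13, -1.12 ± 0.13 and -1.35 ± 0.13 in miR-155-/- kidney (limma adjusted p = 2.18e-07, 1.02e-07 and 3e-09). A second probe was above background on 1 of 32 arrays. Averaged with it, the gene was no longer called at 72 h in wild type kidney (-0.24, limma adjusted p = 0.382), stood at 0.017 at 24 h in miR-155-/- kidney (limma adjusted p = 0.948) and fell by 0.64 at 72 h there.

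Cyp2j5 was -0.01, 0.46, 0.72 and 0.71 in wild type saline kidney, -0.96, -1.99, -0.60 and -2.20 at 24 h, -0.57, -1.04, -0.55 and -0.70 at 48 h and -0.59, -0.92, -0.56 and -0.89 at 72 h. Levels of miR-155-/- kidney were 0.40, 0.83, 0.61 and 0.77 with saline, -1.03, -1.13, -1.89 and -3.48 at 24 h, -0.35, -0.77, -3.09 and -0.91 at 48 h and -1.31, -1.01, -1.16 and -0.79 at 72 h. All treated arrays lay below saline, and in miR-155-/- kidney the lowest were 24 h replicate 4 and the 48 h array that stood apart. The differences were -1.91 ± 0.45, -1.19 ± 0.45 and -1.21 ± 0.45 in wild type kidney (limma adjusted p = 0.0013, 0.0547 and 0.048), so that the 48 h value missed the threshold. For miR-155-/- kidney they were -2.53 ± 0.45, -1.93 ± 0.45 and -1.72 ± 0.45 (limma adjusted p = 4.58e-05, 0.00109 and 0.0035), the 48 h value being -1.33 without the arrays that stood apart. The wild type 72 h call was lost under 3 other settings and without any of 7 single arrays, with limma adjusted p of 0.0507 to 0.11. With slide as a block the wild type values were -2.14, -1.60 and -1.75, and the 48 h one was called too (limma adjusted p = 0.00599).

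Cyp2j11 and Cyp2j13 were called lower in each comparison, with differences of -1.32 and -0.97 at 24 h in wild type and -1.63 and -1.53 at 72 h in miR-155-/- kidney. A pair of further Cyp2j13 probes, above background on all 32 arrays, fell more in the latter, with -2.32 and -2.93. Cyp2j6, by contrast, was called higher at 48 and 72 h, by 0.58 ± 0.10 and 0.49 ± 0.10 in wild type and 0.64 ± 0.10 and 0.55 ± 0.10 in miR-155-/- kidney (limma adjusted p = 5.65e-05, 0.000352, 8.18e-06 and 5.57e-05). A second Cyp2j6 probe, also above background on all 32 arrays, did not show this, with differences of 0.13 at both times in wild type and -0.19 and -0.02 in miR-155-/- kidney, and of -0.36 and -0.60 at 24 h. Cyp2j9 was called lower at 24 h alone, with differences of -0.80 and -0.85, and its 72 h values of 0.64 and 0.70 were not called.

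Cyp4f16 belongs to the family that hydroxylates leukotrienes and long fatty acids at their end. Its level was -1.67, -1.81, -1.71 and -1.65 in wild type saline kidney, -1.03, -0.84, -1.31 and -0.84 at 24 h, -0.57, -0.35, -0.75 and -0.71 at 48 h and -0.97, -0.56, -0.57 and -0.52 at 72 h. On the miR-155-/- arrays it was -1.92, -1.79, -2.11 and -1.93 with saline, -1.09, -1.25, -0.28 and -0.56 at 24 h, -0.47, -0.47, 0.41 and -0.40 at 48 h and -0.19, -0.16, -0.23 and -0.51 at 72 h. Every treated array lay above its saline group, and the 2 arrays that stood apart were the highest of their groups. The differences were 0.70 ± 0.18, 1.11 ± 0.18 and 1.06 ± 0.18 in wild type kidney (limma adjusted p = 0.00326, 4.42e-05 and 7.38e-05) and 1.14 ± 0.18, 1.70 ± 0.18 and 1.67 ± 0.18 in miR-155-/- kidney (limma adjusted p = 1.34e-05, 4.23e-08 and 4.83e-08). Cyp4f13 and Cyp4f17 were not called in any comparison with saline, Cyp4f18 was called higher once, and Cyp4f14, Cyp4f15 and Cyp4f39 were each called lower once.

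Cyp4a31 is one of the fatty acid hydroxylases known as targets of PPAR alpha, and its near-identical copies include Cyp4a10 and Cyp4a32, so that its probe may read them. Its level was 4.22, 5.07, 5.25 and 4.60 in wild type saline kidney, 4.48, 4.82, 5.06 and 4.94 at 24 h, 5.22, 5.06, 5.83 and 5.91 at 48 h and 6.17, 6.35, 6.85 and 6.55 at 72 h. Kidneys of miR-155-/- mice gave 5.13, 4.95, 4.29 and 4.82 with saline, 5.07, 4.65, 4.01 and 5.45 at 24 h, 4.43, 5.14, 3.49 and 4.86 at 48 h and 5.65, 6.26, 6.10 and 6.18 at 72 h. The arrays overlapped saline at 24 and 48 h and lay above it at 72 h in both genotypes. The 72 h difference was 1.70 ± 0.30 in wild type and 1.25 ± 0.30 in miR-155-/- kidney (limma adjusted p = 9.4e-05 and 0.00168). Cyp4a32 was called higher at 72 h alone as well, by 1.97 and 1.61.

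Cyp2c67 and Cyp2c68, both on chromosome 19, fell at every time in both genotypes. The Cyp2c genes make epoxides and hydroxyl products of arachidonic acid and are liver enzymes above all. Their promoters are shown with that of Cyp3a16, described next, because the HNF4 site CAAAGTCCA, in capitals, was found in all 3. RefSeq on GRCm38.p6 places them at chr19:39648993-39649292, chr19:39741052-39741351 and chr5:145469674-145469973, each on the minus strand.
Cyp2c67: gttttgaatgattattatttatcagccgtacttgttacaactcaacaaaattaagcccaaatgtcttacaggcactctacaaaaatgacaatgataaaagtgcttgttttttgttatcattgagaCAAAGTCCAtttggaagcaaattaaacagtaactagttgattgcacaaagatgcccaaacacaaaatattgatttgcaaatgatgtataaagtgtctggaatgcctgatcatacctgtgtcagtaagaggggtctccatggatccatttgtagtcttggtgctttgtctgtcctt
Cyp2c68: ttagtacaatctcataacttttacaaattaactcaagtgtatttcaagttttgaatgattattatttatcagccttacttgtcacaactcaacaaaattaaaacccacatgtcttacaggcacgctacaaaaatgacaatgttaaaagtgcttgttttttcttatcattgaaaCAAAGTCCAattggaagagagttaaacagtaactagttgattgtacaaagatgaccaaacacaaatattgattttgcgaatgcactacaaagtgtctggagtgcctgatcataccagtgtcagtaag
Cyp3a16: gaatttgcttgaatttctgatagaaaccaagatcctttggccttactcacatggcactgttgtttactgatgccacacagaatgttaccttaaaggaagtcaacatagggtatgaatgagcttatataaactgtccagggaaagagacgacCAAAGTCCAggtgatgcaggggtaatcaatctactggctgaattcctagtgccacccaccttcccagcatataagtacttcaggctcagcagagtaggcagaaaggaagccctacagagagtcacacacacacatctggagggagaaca

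These letters stood at positions -125, -77 and -99 from the start. On either strand they were found in 5 of 49 members, the others being Cyp2c70 and Cyp3a11, or 10.2%, and in 0.475% of all 32851 promoters. The 5 genes belong to only 2 subfamilies, and promoters of tandem copies share sequence. The core of the dioxin response element, GCGTG, was found in 14 members against 32.4% of all promoters, the nuclear receptor core AGGTCA in 10 against 16.3%, the TATA box TATAAA in 20 against 13.6% and the E-box CACGTG in 2 against 7.15%.

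Cyp2c67 was -3.66, -3.33, -3.78 and -4.39 in wild type saline kidney, -5.79, -5.41, -4.99 and -5.71 at 24 h, -6.23, -5.90, -5.42 and -5.21 at 48 h and -5.37, -5.90, -5.78 and -5.55 at 72 h. The miR-155-/- arrays read -3.64, -3.49, -3.23 and -2.90 with saline, -5.05, -5.47, -4.08 and -5.39 at 24 h, -5.04, -5.03, -5.59 and -5.45 at 48 h and -5.90, -6.09, -5.78 and -4.88 at 72 h. No treated array reached the saline range. The differences were -1.68 ± 0.30, -1.90 ± 0.30 and -1.86 ± 0.30 in wild type kidney (limma adjusted p = 5.43e-05, 2.08e-05 and 2.37e-05) and -1.68 ± 0.30, -1.96 ± 0.30 and -2.35 ± 0.30 in miR-155-/- kidney (limma adjusted p = 4.22e-05, 7.27e-06 and 4.73e-07). With normexp the values shrank to between -1.14 and -0.20, and those at 24 and 48 h were not called in either genotype (limma adjusted p = 0.0606 to 0.568). The mean of all probes ended the wild type 24 h call as well (-1.06, limma adjusted p = 0.0568).

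Cyp2c68 was -3.95, -3.32, -3.65 and -4.56 in wild type saline kidney, -5.91, -5.63, -4.99 and -5.30 at 24 h, -6.12, -6.34, -5.09 and -5.22 at 48 h and -5.37, -6.16, -6.21 and -5.69 at 72 h. Its miR-155-/- arrays read -3.80, -3.23, -3.30 and -2.94 with saline, -5.06, -5.12, -4.22 and -6.05 at 24 h, -4.70, -5.20, -5.73 and -5.13 at 48 h and -6.11, -6.22, -5.95 and -4.86 at 72 h. As for Cyp2c67, no treated array reached the saline range of its genotype. It differed by -1.58 ± 0.36, -1.82 ± 0.36 and -1.99 ± 0.36 in wild type kidney (limma adjusted p = 0.000932, 0.000397 and 0.000124). The miR-155-/- values were -1.80 ± 0.36, -1.88 ± 0.36 and -2.47 ± 0.36 (limma adjusted p = 0.000184, 0.000148 and 4.13e-06). With normexp the 6 values were between -1.15 and -0.76 and all were called. Cyp2c67 and Cyp2c68 lay close together on most arrays, and whether their probes share signal was not tested. Of the 9 measured Cyp2c genes, 2 were called lower at each time in wild type kidney and 6, 5 and 6 in miR-155-/- kidney, with none called higher. Cyp2c29 and Cyp2c37, main forms of liver, were called lower in miR-155-/- kidney at each time, with differences of -1.39 and -1.07 at 72 h, and had wild type values of -0.37 and -0.47 that were not called. Cyp2c37 was -4.75, -5.40, -6.61 and -6.54 on the wild type and -5.44, -5.70, -5.48 and -4.33 on the miR-155-/- saline arrays. It was highest on the arrays that were also highest in the hepatocyte markers albumin and fetuin, given next. Their part in its fall was not tested. The same arrays were the highest of their saline groups in Cyp3a11, at -3.03 and -2.80.

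Cyp2a12, Cyp2c50 and Cyp3a16 lay near the background of the arrays. They are given beside the hepatocyte transcripts of albumin and fetuin, which differed between the same arrays. Cyp2a12, a steroid hydroxylase of liver, was -4.17, -6.84, -7.99 and -7.88 in wild type and -5.08, -5.86, -6.05 and -3.85 in miR-155-/- saline kidney. After cisplatin it ran from -10.4 to -9.13 in wild type and from -10.4 to -8.78 in miR-155-/- kidney and was not well above background on any array. Albumin (Alb) was 0.45, -2.24, -2.53 and -2.10 on the same wild type saline arrays and -0.53, -0.74, -0.74 and 0.99 on those of miR-155-/- kidney, and fetuin (Ahsg) 0.03, -2.82, -4.82 and -4.32 and -1.11, -1.55, -2.34 and 0.18. The wild type saline array highest in Cyp2a12 was the highest in both markers, and likewise among the miR-155-/- saline arrays.

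All 8 hepatocyte markers were measured. They were called lower in 5, 4 and 3 of 8 cases at 24, 48 and 72 h in wild type kidney and in 7, 7 and 4 in miR-155-/- kidney. In wild type kidney 1 was called higher at each time, and in miR-155-/- kidney 1 at 72 h. Their median difference was -0.89, -0.41 and 0.05 in wild type and -1.11, -1.61 and -0.86 in miR-155-/- kidney. Of these markers only Alb and Ahsg are given by array. The summed linear level of all 8 was 40.5 to 50.8 in wild type and 42.3 to 56.5 in miR-155-/- saline kidney. After cisplatin it was 19.7 to 59.4 in wild type and 22.6 to 52.7 in miR-155-/- kidney. Alb and Ahsg are a small part of this sum, so it does not follow their differences between the saline arrays. No marker of the list was at 0 on any array. Their part in the falls of these P450 genes was not tested.

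The dim side of a bound was taken per array. It was the higher of the gene's own signal and the lowest signal of any probe well above background. A bound can therefore equal the fitted fold. Each bound holds for the processed signal alone and is no lower limit under normexp, where the same genes differed by less. Cyp2a12 was at least 8.49-fold, 7.07-fold and 8.89-fold lower in wild type kidney at 24, 48 and 72 h (limma adjusted p = 6.09e-05, 0.000471 and 7.34e-05). In miR-155-/- kidney it was at least 20-fold, 21.2-fold and 21.6-fold lower, which is given as a description, since the gene passed the filter only through its high level in miR-155-/- saline kidney. It was well above background on 2 of 4 wild type saline arrays. Without wild type saline replicate 1 the fitted differences shrank from -3.20, -2.83 and -3.27 to -2.34, -1.98 and -2.42, and normexp shrank all 6 to between -0.89 and -0.48, all still called. With slide as a block the miR-155-/- 48 h difference moved from -4.45 to -3.80.

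Cyp2c50 was -4.34, -8.41, -9.83 and -10.08 in wild type and -5.13, -5.31, -6.23 and -4.06 in miR-155-/- saline kidney, well above background on 1 and 4 of 4 arrays. After cisplatin it was not well above background on any array of either genotype. In miR-155-/- kidney it was at least 20.5-fold, 27.9-fold and 15.3-fold lower at 24, 48 and 72 h, the last being the fitted fold, and this too is a description, since the gene passed the filter only through miR-155-/- saline kidney. In wild type kidney it was not called (limma adjusted p = 0.0752, 0.265 and 0.128). Normexp moved the miR-155-/- fitted differences from -4.60, -4.96 and -3.93 to -0.97, -0.97 and -0.86, and slide as a block moved the 48 and 72 h ones to -4.16 and -3.32, all still called.

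Cyp3a16, a form known from fetal liver, was -4.71, -7.41, -9.88 and -7.52 in wild type and -5.66, -5.87, -6.20 and -3.91 in miR-155-/- saline kidney. It was called once, at 24 h in miR-155-/- kidney, where its arrays read -8.29, -8.76, -7.66 and -8.71 and none was well above background. It was there at least 7.7-fold lower, which is the fitted fold, since its own signal lay above the dimmest probes. The fitted difference was -2.95, or -0.74 with normexp. This too is a description, since the gene passed the filter only through miR-155-/- saline and 48 h kidney. The 48 h arrays of the same genotype read -6.37, -6.62, -5.71 and -5.25 and overlapped saline.

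**Figure D4:**
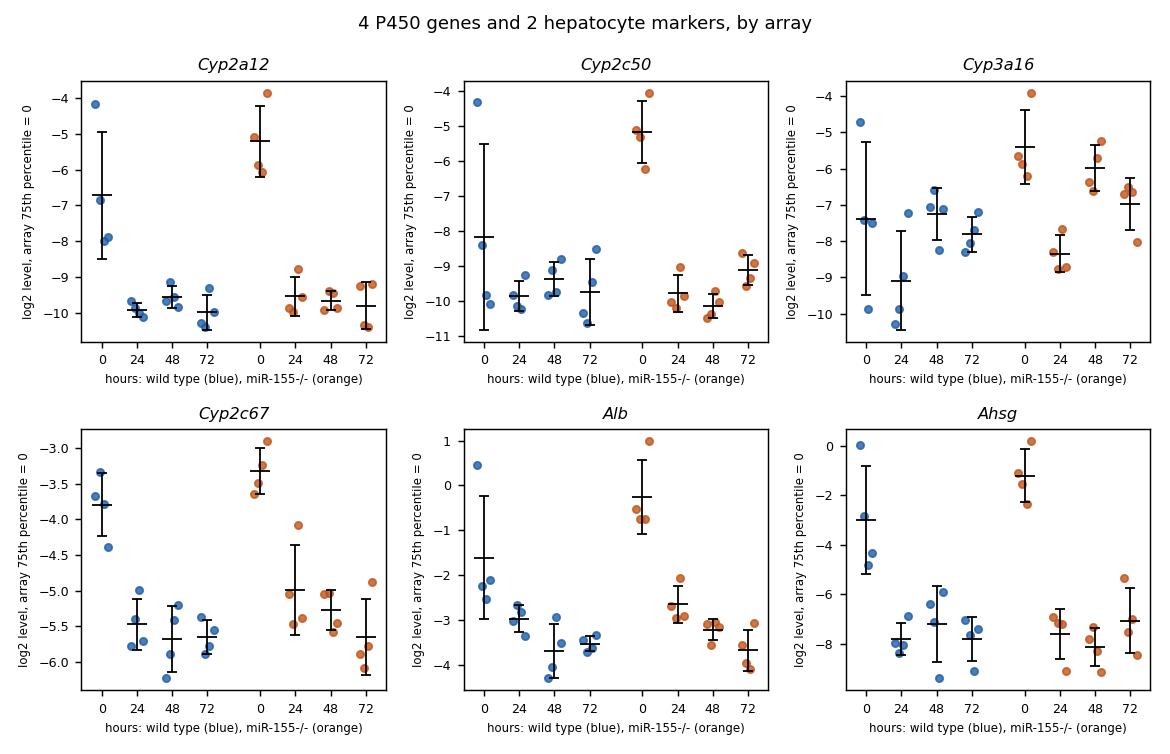
Levels of Cyp2a12, Cyp2c50, Cyp3a16 and Cyp2c67 beside the hepatocyte markers Alb and Ahsg (log2 signal relative to the array's 75th percentile) against hours after injection; points are arrays, bars the group mean ± SD, wild type in blue and miR-155-/- in orange. In wild type saline kidney 1 array lies above the other 3 in Cyp2a12, Cyp2c50, Cyp3a16, Alb and Ahsg, and Cyp2c67, between -4.39 and -3.33 there, does not share that spread. In miR-155-/- saline kidney Cyp2c67 is highest, at -2.90, on replicate 4, the array also highest in Alb and Ahsg.

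Of the 6 measured genes of sterol, bile acid and steroid metabolism, 2 fell at every time in both genotypes. Cyp7b1 hydroxylates oxysterols and dehydroepiandrosterone in the alternative route to bile acids. Its level was 5.11, 5.01, 5.26 and 5.29 in wild type saline kidney, 4.03, 3.43, 4.01 and 3.28 at 24 h, 4.02, 4.44, 4.35 and 4.29 at 48 h and 4.22, 4.37, 3.98 and 4.20 at 72 h. Levels of miR-155-/- kidney were 5.09, 5.38, 4.61 and 4.75 with saline, 3.61, 3.56, 4.46 and 3.27 at 24 h, 3.81, 4.02, 3.26 and 3.88 at 48 h and 3.47, 3.82, 3.43 and 3.85 at 72 h. The treated arrays lay below saline without overlap, and in wild type kidney those of 24 h included the lowest. The differences were -1.48 ± 0.21, -0.89 ± 0.21 and -0.98 ± 0.21 in wild type kidney (limma adjusted p = 2.54e-06, 0.00216 and 0.00081) and -1.23 ± 0.21, -1.22 ± 0.21 and -1.32 ± 0.21 in miR-155-/- kidney (limma adjusted p = 2.55e-05, 3.92e-05 and 1.36e-05).

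Cyp39a1, a second oxysterol hydroxylase, differed by -1.28 ± 0.25 at 24 h and -0.80 ± 0.25 at 72 h in wild type kidney (limma adjusted p = 0.000172 and 0.0174). In miR-155-/- kidney it differed by -1.52 ± 0.25 and -1.08 ± 0.25 (limma adjusted p = 1.72e-05 and 0.00108). Cyp21a1, the steroid 21-hydroxylase best known from adrenal cortex, was called higher at 48 and 72 h in miR-155-/- kidney, by 0.79 and 0.74. Adrenal cortex markers, 6 of 7 measured, had a summed level of 0.775 to 1.16 over wild type and 0.782 to 2.97 over miR-155-/- kidneys, and 1 of 6 was called higher at each time in the latter and 1 lower at 24 h in both genotypes. Cyp27a1, the mitochondrial sterol hydroxylase, Cyp46a1, the cholesterol hydroxylase of brain, and Cyp17a1, which acts in androgen synthesis, were not called in any comparison with saline.

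The falls and rises seen at every time were also read within slides. With slide as a block, the 6 differences of Cyp4b1, Cyp2j8, Cyp4f16, Cyp2c67, Cyp2c68, Cyp7b1 and Cyp39a1 all kept their sign and their call. Within single slides that held saline and treated arrays of a genotype, Cyp4b1 differed by -1.27 to -0.18, Cyp2j8 by -1.45 to -0.68, Cyp2j5 by -3.92 to -1.27 and Cyp7b1 by -2.12 to -0.29. The ranges were -2.57 to -1.03 for Cyp2c67, -3.02 to -0.53 for Cyp2c68, -2.73 to -0.74 for Cyp39a1, 0.82 to 2.20 for Cyp4f16 and 1.57 to 6.27 for Cyp3a13. None of these genes changed sign on a slide. For the late rises at 72 h in miR-155-/- kidney the within-slide values were 3.89 and 2.41 for Cyp2b10, 3.45 and 1.84 for Cyp2b9, 2.03 and 2.19 for Cyp2d13 and 1.23 and 1.81 for Cyp4a31, and no slide held both saline and 72 h arrays of wild type kidney.

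The 3 measured genes of retinoid and vitamin D metabolism did not move as a group. Cyp26a1, which degrades retinoic acid, was -5.31, -5.22, -4.94 and -5.54 in wild type saline kidney, -6.04, -5.79, -5.65 and -5.83 at 24 h, -6.36, -6.41, -6.52 and -5.75 at 48 h and -6.56, -6.86, -6.88 and -6.04 at 72 h. On the miR-155-/- arrays it was -5.40, -5.47, -5.23 and -5.11 with saline, -6.27, -5.72, -4.71 and -6.35 at 24 h, -5.71, -5.66, -5.24 and -5.55 at 48 h and -7.15, -7.22, -6.83 and -6.29 at 72 h. The wild type arrays lay below saline at every time, and those of miR-155-/- kidney at 72 h alone. It was called lower at 48 and 72 h in wild type kidney, with differences of -1.01 ± 0.28 and -1.33 ± 0.28, and at 72 h in miR-155-/- kidney, with a difference of -1.57 ± 0.28 (limma adjusted p = 0.00775, 0.00057 and 5.08e-05). With normexp these were -0.28, -0.38 and -0.42, all still called.

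Cyp26b1, of the same activity, was called higher at all 3 times in wild type kidney, by 1.51 ± 0.43, 1.54 ± 0.43 and 1.55 ± 0.43 (limma adjusted p = 0.00673, 0.00957 and 0.00855), against saline arrays that spread from -2.94 to -0.32. Treated and saline arrays overlapped at each of these times. Its differences in miR-155-/- kidney of 0.02, 0.96 and 0.79 were not called. Cyp2r1, a vitamin D hydroxylase, was called lower once, at 48 h in miR-155-/- kidney, with a difference of -0.51.

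Cyp20a1, a P450 of unknown substrate, moved little. Its level was -1.29, -1.23, -1.40 and -1.34 in wild type and -1.28, -1.25, -1.27 and -1.21 in miR-155-/- saline kidney, and ran from -1.55 to -1.15 after cisplatin. It was not called, and its 95% confidence intervals over the 6 comparisons lay between -0.33 and 0.20.

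Partners of the P450 enzymes were read from lists of related genes. Of 9 measured electron donors, 3 were called higher and 3 lower at 24 h in wild type kidney and 2 and 4 at 72 h in miR-155-/- kidney. Por, the P450 oxidoreductase, was not called at any time, with differences between -0.08 and 0.32. Cyb5a, cytochrome b5, was called lower in 5 of 6 comparisons, with differences of -0.51 at 24 h in wild type and -0.68 at 72 h in miR-155-/- kidney, whereas Cyb5r3, its reductase, and Pgrmc1, a haem-binding partner, were called higher in each. Among 12 genes of haem synthesis and breakdown, 6, 3 and 4 were called higher and 0, 0 and 1 lower in wild type kidney. The miR-155-/- counts were 3 higher at each time and 0, 2 and 4 lower. Hmox1, the haem oxygenase, rose by 2.55 and 2.47 at 24 h (limma adjusted p = 5.82e-07 and 9.06e-07).

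Of 20 measured nuclear and xenobiotic receptors, 3 were called higher at each time in wild type and 2 in miR-155-/- kidney, and 3, 1 and 2 lower in wild type and 8, 9 and 7 in miR-155-/- kidney. Hnf4a was called lower at 24 h in wild type kidney, with a difference of -0.91, and at every time in miR-155-/- kidney, with differences of -1.19, -1.23 and -1.04. Nr1i2, the pregnane X receptor, was called higher at every time in wild type kidney and at 72 h in miR-155-/- kidney, by 1.33 and 0.95 at 72 h. Ppara was called higher once, at 72 h in wild type kidney, by 0.98, and Nr1i3, the receptor CAR, and Ahr were not called.

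Of 27 measured phase II and epoxide enzymes, which act on P450 products, 12, 11 and 12 were called lower and 2, 2 and 3 higher in wild type kidney, where 17.6%, 11.6% and 12.8% of all genes were called lower. The miR-155-/- comparisons gave 17, 16 and 17 lower and 1, 3 and 4 higher, where 22.5%, 21.1% and 17.5% of all genes were called lower. Among 6 measured genes that the aryl hydrocarbon receptor controls, Nqo1 rose by 2.47 and 1.84 at 72 h. Ephx1, the microsomal epoxide hydrolase, rose by 3.43 and 3.02 at 72 h, while Ephx2, the soluble one that acts on arachidonic acid epoxides, was called lower at every time, with differences of -0.59 and -0.97 at 48 h. Proximal tubule markers were called lower in 11, 5 and 5 of 12 cases in wild type and in 11, 11 and 10 in miR-155-/- kidney, and their part in the falls of P450 genes was not tested.

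Members continued to move between 24 and 72 h. In wild type kidney 10 were called higher and 4 lower at 72 h than at 24 h, 23.0% against 26.5% of all genes tested (11.9% higher and 14.7% lower). The counts of miR-155-/- kidney were 12 higher and 8 lower, 32.8% against 31.9% of all genes (13.6% higher and 18.3% lower). These shares were near those of all genes. In wild type kidney 23 members were called in place of 14 when only its 24 and 72 h arrays were fitted. The share of all genes called in that fit was not counted. Cyp2b10 rose in this interval by 4.06 ± 0.50 in wild type and 3.11 ± 0.50 in miR-155-/- kidney (limma adjusted p = 5.11e-07 and 2.8e-05). Cyp4a31, Cyp4a32, Cyp2j9, Cyp2d13, Cyp2b9, Cyp4v3 and Cyp17a1 also rose in both genotypes, and Cyp1a1, Cyp2a4, Cyp26a1 and Cyp2u1 fell in both. Cyp2e1 and Cyp4b1 fell between these times in miR-155-/- kidney, with differences of -1.0 ± 0.30 and -0.77 ± 0.14 (limma adjusted p = 0.0114 and 0.000128), and had wild type values of -0.15 and -0.25 that were not called.

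The comparison of the genotypes asked whether the loss of miR-155 altered these genes before or after cisplatin. By limma 0 of the 61 members were called between miR-155-/- and wild type kidney at 0, 24, 48 or 72 h, where 0.114%, 0.08%, 0.101% and 0.72% of all genes were called. At an unadjusted p under 0.05 there were 6, 4, 12 and 18 members, or 9.84%, 6.56%, 19.7% and 29.5% against 3.33%, 9.30%, 15.1% and 10.9% of all genes, and the smallest limma adjusted p were 0.188, 0.504, 0.231 and 0.100. The difference between the genotypes' responses to cisplatin, the interaction, was called for 0 members at 24, 48 and 72 h, where 0%, 0% and 0.215% of all genes were called. Here 3, 10 and 16 members had an unadjusted p under 0.05, or 4.92%, 16.4% and 26.2% against 3.31%, 7.16% and 7.58% of all genes, and the smallest limma adjusted p were 0.939, 0.565 and 0.0519. The median half-width of the 95% confidence interval of an interaction was 0.814, so a smaller difference in response was not detectable for the typical member. These intervals are not adjusted for the number of genes tested, so a call needed a larger difference still, and differences above 0.814 could go uncalled. More members were thus called lower in miR-155-/- kidney than in wild type kidney, while no single difference in response was called.

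Cyp2a4 came nearest. Its fall at 72 h was -0.60 in wild type and -1.43 in miR-155-/- kidney, an interaction of -0.82 ± 0.18 (limma adjusted p = 0.0519). The level at 72 h differed between miR-155-/- and wild type kidney by -0.46 ± 0.13 without overlap of the arrays (limma adjusted p = 0.1), and with saline it was higher by 0.37 ± 0.13 (limma adjusted p = 0.823). Over 29 settings the interaction ran from -0.95 to -0.69 with limma adjusted p from 0.0242 to 0.190. It passed the threshold in 5 of them, namely with slide as a block, with the compared groups alone, and without wild type saline replicate 4, miR-155-/- saline replicate 3 or miR-155-/- 72 h replicate 4.

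Cyp2c50 differed between the saline groups by 2.98 ± 0.75 and Cyp2a12 by 1.51 ± 0.57. Both passed the filter only through miR-155-/- saline kidney, which favoured a higher level there, so these values are a description. Without wild type saline replicate 1, the array highest of its group in Alb and Ahsg, they were 4.25 and 2.36, past the threshold, as was the Cyp2c50 interaction at 48 h (-5.02) and 72 h (-3.63), which rests on the same saline arrays. Alb differed between the saline groups by 1.35 (limma adjusted p = 0.647), and its part was not tested. Cyp2b10 differed at 48 h by -1.91 ± 0.50 without overlap (limma adjusted p = 0.231), and Cyp4a31 by -1.02 ± 0.30 (limma adjusted p = 0.277).

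**Figure D5:**
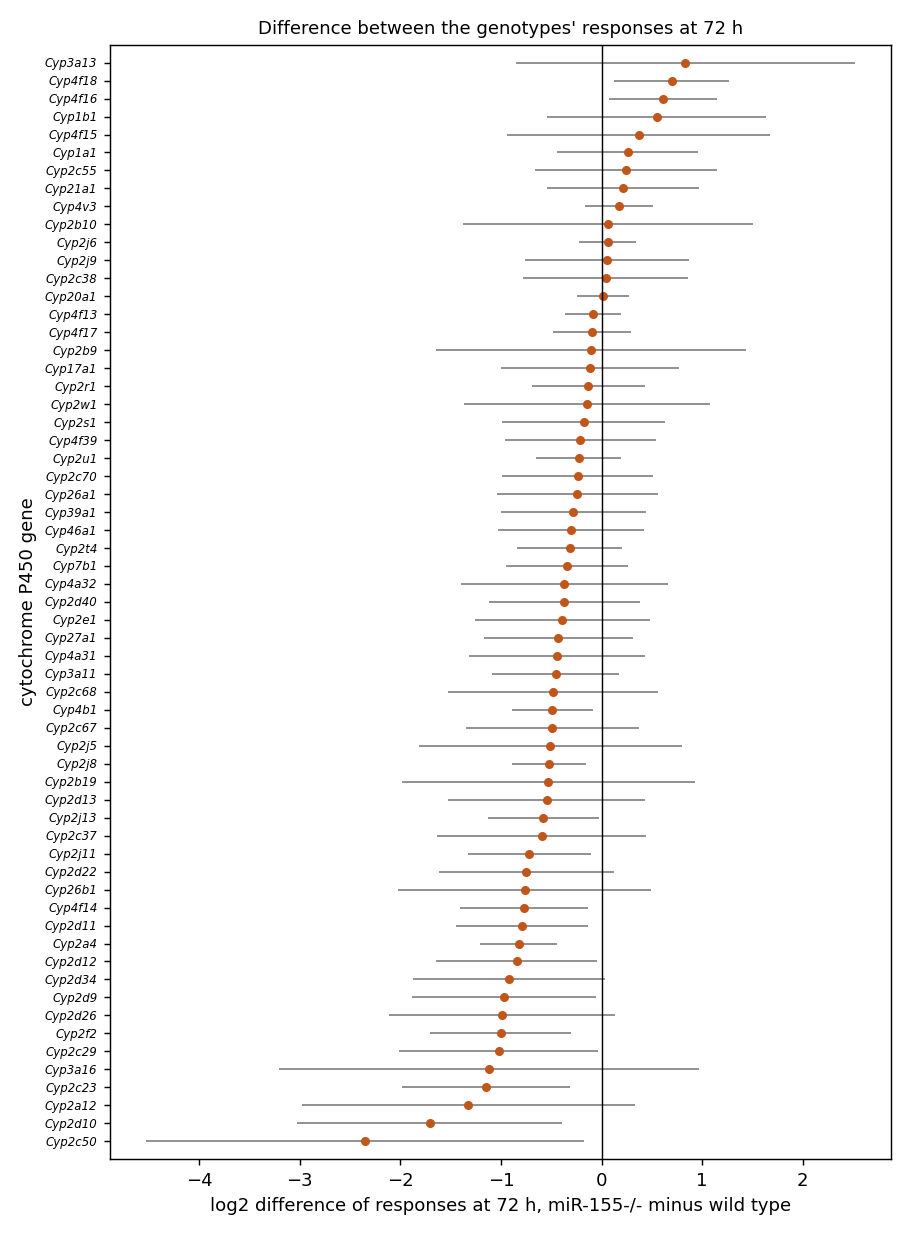
Interaction at 72 h for each of the 61 P450 genes, the log2 response of miR-155-/- kidney minus that of wild type kidney, with its 95% confidence interval from the limma fit. None is called, and Cyp2a4, at -0.82, has the smallest adjusted p (0.0519).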

How the data were processed

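RNA of 32 whole kidneys was hybridised to 1-colour Agilent mouse arrays. Per the file headers, the deposited intensity values, processed signals with background already subtracted, were extracted with Feature Extraction 10.7.3.1, and the array annotation names the build mm9. The deposited value table, of 75th percentile 999 to 1000 on each array, was used as an alternative and matched the scanner signals up to 1 factor per array, within 0.072 on the log2 scale for 95% of spots.

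Control spots and 59 to 976 outlier spots per array were left out, and no spot was saturated. The log2 processed signal minus the array's 75th percentile (1531 to 2647 intensity units) was averaged per probe. Of 39429 probes, 27234 had 1 symbol through their RefSeq accession. A probe had to be well above background on the 4 arrays of at least 1 group, which 68.0% to 81.8% of probes were on a single array. The brightest probe stood for a gene, and each gene is set only against itself.

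A mean per group was fitted over all 32 arrays with limma 3.58.1 in R 4.3.3 (trended variance, 24 residual degrees of freedom), with Benjamini-Hochberg adjustment over 23759 genes in each of 15 comparisons. A ± is the standard error from that fit, with n = 4 arrays in each group. The fitting code was tested on simulated data. Replicates are separate animals, per the labels' protocols. Slide was tried as a block and within slides, and all arrays of a slide shared a scan day. Replicate numbers were not taken as a pairing of the samples. The lowest correlation of same-numbered arrays was below 0 in every comparison of 2 groups. The highest reached 0.52, for wild type 48 h against saline. The correlations are of deviations from group means, where values below 0 arise without pairing, so they cannot exclude one. A probe not well above background on any array of a group has only a bound there. Fixed alternatives were other scalings, filters, probe rules, samples in the fit and blocks; the normexp correction used the median spot signal. Leaving out the arrays that stood apart, that form of normexp and counting symbols that end in a further letter were added after seeing the data.

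The members, roles and lists of related genes were chosen with earlier results of these data known. Values by array are given for members taken by a rule: the brightest in saline, the largest called changes in each comparison with saline, and the smallest adjusted p in each role. Others were named after their values were seen. Promoters are those of RefSeq for 49 of the 61 members. Of 12 sequence patterns looked at, 6 were kept.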

Additional observations from a re-analysis of the deposited data

Results flagged for a closer look

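Among 168 groups of 4 arrays for the members described by array, 13 held an array far from the other 3, where chance gives about 5% of groups. In miR-155-/- kidney at 48 h, replicate 3 was such an array for Cyp2s1 (1.73, the others 3.20 to 3.26), Cyp3a13 (0.15, the others -3.20 to -2.97), Cyp4f16 (0.41, the others -0.47 to -0.40) and Cyp4b1 (6.10, the others 5.64 to 5.70). It is one of the arrays that stood apart over all genes. In wild type kidney at 48 h, replicate 1 was low in both Cyp2b10 (-1.48, the others -0.37 to -0.16) and Cyp2b9 (-6.73, the others -4.94 to -4.77). The remaining ones were single genes. Cyp2b10 was low in miR-155-/- saline replicate 2, at -4.60 against -2.66 to -2.39. Cyp3a13 was low in wild type 24 h replicate 3, at -5.27 against -4.39 to -4.28. Cyp3a16 was low in miR-155-/- 72 h replicate 4, at -8.03 against -6.71 to -6.50. Cyp4f16 was low in wild type 72 h replicate 1, at -0.97 against -0.57 to -0.52. Cyp4b1 was high in wild type saline replicate 1, at 6.86 against 6.59 on each other array. Cyp2a4 was low in wild type 24 h replicate 4, at 5.88 against 6.14 to 6.17. Cyp20a1 was high in wild type 48 h replicate 2, at -1.23 against -1.32 to -1.31.

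Cyp2a4 at 24 h moved in opposite directions in the genotypes on every array relative to the saline mean. The difference was 0.24 in wild type kidney and -0.24 in miR-155-/- kidney, and the interaction of -0.48 was not called (limma adjusted p = 0.939).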

How the results depend on the processing

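The count of members called stayed within 1.5 times the count reported in the 6 comparisons with saline under each alternative that was run. Leaving out single arrays gave 18 to 22, 18 to 22 and 24 to 26 called at 24, 48 and 72 h in wild type and 18 to 30, 24 to 29 and 35 to 39 in miR-155-/- kidney, and 11 to 14 and 15 to 23 for 72 h against 24 h. For the genotype comparison it gave 0 to 2 at 0 h (2, Cyp2c50 and Cyp2a12, without wild type saline replicate 1) and 0 at the other times, and for the interaction 0 at 24 h, 0 to 1 at 48 h (1, Cyp2c50, without the same array) and 0 to 1 at 72 h. With the compared groups alone, 23 members were called for wild type 72 h against 24 h in place of 14, 7 for the genotypes at 72 h (Cyp2a4, Cyp2d10, Cyp2f2, Cyp2j8, Cyp2j11, Cyp2j13 and Cyp7b1) and 6 for the interaction at 72 h (Cyp2a4, Cyp2c23, Cyp2j8, Cyp2j11, Cyp4f14 and Cyp4f16), in place of 0. The interaction at 72 h gave 1 (Cyp2a4) with slide as a block, and the genotypes at 24 h gave 1 (Cyp2j8) with the mean of all probes. The shares of all genes called under these settings were not counted, and the cause was not tested. Of 89 called differences of the members described by array, 1 reversed, Cyp2j8 at 24 h in miR-155-/- kidney with the mean of all probes (0.017), and 7 lost the call with normexp, more than under any other single setting that keeps all arrays. Leaving out single arrays ended 16 of 712 calls.

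The replicate numbers were not taken as a pairing, but were tried as a block. With the replicate block, 20, 20 and 25 members were called in wild type, 27, 27 and 38 in miR-155-/- kidney, 14 and 20 for 72 h against 24 h, and 0 in each genotype and interaction comparison. The correlation of same-numbered arrays ran from -0.30 to 0.079 at 24 h and from -0.22 to 0.52 at 48 h in wild type kidney. The block ended 1 of the 89 calls, Cyp2j5 at 72 h in wild type kidney (limma adjusted p = 0.0567). Normexp on the mean spot signal, planned at first, was not run, and the median spot signal took its place. Normexp moved the size by over 1.5 times for Cyp2a12, Cyp2c50 and Cyp3a16, which lie near background, and for Cyp2b9, Cyp26a1, Cyp2c67, Cyp2c68, Cyp2d10, Cyp2d13 and Cyp3a13, and 4 arrays per group limit the precision.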

Other observations

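P450 genes whose symbols fall outside the form of the members were measured as well. Cyp51, which removes a methyl group from lanosterol on the way to cholesterol, was called lower in each of the 6 comparisons with saline. Its differences were -2.12 ± 0.27, -2.19 ± 0.27 and -2.24 ± 0.27 in wild type kidney (limma adjusted p = 4.4e-07, 5.35e-07 and 3.11e-07) and -1.87 ± 0.27, -2.14 ± 0.27 and -2.77 ± 0.27 in miR-155-/- kidney (limma adjusted p = 2.56e-06, 4.28e-07 and 4.33e-09). Cyp4a12a and Cyp4a12b, fatty acid hydroxylases of male kidney that are nearly identical, were called lower in each comparison too. Cyp4a12a differed by -1.05, -1.35 and -0.97 in wild type and -0.79, -0.84 and -1.11 in miR-155-/- kidney, while Cyp4a31 and Cyp4a32 rose at 72 h. With slide as a block the wild type 72 h call was lost for Cyp4a12a (-0.62, limma adjusted p = 0.0712) and Cyp4a12b (-0.60, limma adjusted p = 0.0858). On the single slide that held miR-155-/- saline and 48 h arrays they differed by 0.04 and 0.08. The 48 h array of that slide was replicate 3, one of the arrays that stood apart. These genes were named after their values were seen.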
